A study of Mus musculus with 24 samples.

Results

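The imprinted growth genes described here are 10 genes of the mouse: Peg10, Sgce, Peg3, H19, Igf2, Meg3, Dlk1, Mest, Plagl1 and Cdkn1c. They are expressed mainly from 1 parental copy in at least some tissues, and most are known for their part in fetal and placental growth. They were taken by symbol from a table of 55450 genes, and each of the 10 symbols matched 1 row. They were chosen by a rule written with earlier KO versus WT results and levels from these same libraries in view, so their own values are given throughout as a description with no test. The table counts reads per gene and does not separate the parental copies, so nothing below bears on imprinting itself.

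Mice lacking Thumpd1 (knockout, KO) were compared with wild-type (WT) mice in cerebellum, liver and testes at an age of 6 to 12 weeks, with 4 libraries per genotype and tissue and 24 in all. Thumpd1 is the adaptor protein with which cytidines in transfer RNA are acetylated. Founders were made in C57BL/6N zygotes with Cas9 guides to exons 1 and 4 of Thumpd1 and were backcrossed to C57BL/6, so every cell of a KO mouse carries the deletion. For the study as a whole, the methods give mice of either sex and, unless stated otherwise, age-matched littermates as controls. In every tissue the WT libraries carry numbers 1 to 4 and the KO ones 5 to 8. The study calls its tissue samples biological replicates, and the labels do not tie libraries to animals. The p-values below measure the spread between these libraries.

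Imprinted genes lie in clusters in which a differentially methylated control region sets which parental copy is read. Paternally expressed members such as Igf2, Peg3, Mest, Dlk1, Peg10 and Plagl1 and maternally expressed members such as H19, Cdkn1c and Meg3 have often been described as acting on growth in opposite directions. Most are strongly expressed before birth and fall to low levels in many organs, liver among them, after weaning, while some stay high in brain.

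The annotation (GENCODE M21 on mm10) places 3 of the genes on chromosome 6. Peg10, a gene derived from a retrotransposon and needed for the placenta, lies at chr6:4747306-4760517 on the plus strand, and Sgce, which encodes epsilon-sarcoglycan, at chr6:4674350-4747207 on the minus strand, 98 bases away. Mest, which encodes a protein with a hydrolase fold, lies at chr6:30723547-30748465. Chromosome 7 holds Peg3, a zinc finger gene, at chr7:6703892-6730431, and, far from it, H19, a noncoding RNA, at chr7:142575529-142578143, the growth factor gene Igf2 at chr7:142650766-142666816 and Cdkn1c, which encodes an inhibitor of cyclin-dependent kinases, at chr7:143458339-143461050. Dlk1, which encodes a membrane protein related to Notch ligands, lies at chr12:109452823-109463336, and the noncoding RNA Meg3 at chr12:109541001-109571726, 77664 bases apart. Plagl1, a zinc finger transcription factor gene, lies at chr10:13060504-13131694. Igf2, Mest, Meg3, H19, Plagl1 and Cdkn1c overlap an annotated gene on the other strand, and because the strand used in counting is not given in the sources used here, their values are less certain than those of Peg10, Sgce, Peg3 and Dlk1, which overlap none. For Igf2, Meg3 and H19 annotated genes overlap on the same strand as well.

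RefSeq promoter windows (GRCm38.p6, the mm10 build) matched 6 of the 10 genes, namely Peg3, Igf2, Meg3, Dlk1, Mest and Plagl1, with 12 windows among 32841. The windows of the chromosome 12 partners Meg3 and Dlk1 are shown because these genes stood far apart in level in liver and cerebellum, and that of Mest because it held the most copies of the motif searched. Each is the 250 bases before a transcript start, printed 5′ to 3′ on the plus strand, which all 3 genes are read from, holds no annotated exon base and has every CG dinucleotide, the target of DNA methylation, in capitals. The Meg3 window is chr12:109540746-109540995, the Dlk1 window chr12:109452573-109452822 and the Mest window chr6:30737800-30738049.
Meg3: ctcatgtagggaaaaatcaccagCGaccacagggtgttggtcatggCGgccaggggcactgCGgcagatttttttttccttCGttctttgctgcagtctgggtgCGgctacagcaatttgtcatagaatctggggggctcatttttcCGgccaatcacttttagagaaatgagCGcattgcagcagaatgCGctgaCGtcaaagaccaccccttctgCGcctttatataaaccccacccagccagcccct
Dlk1: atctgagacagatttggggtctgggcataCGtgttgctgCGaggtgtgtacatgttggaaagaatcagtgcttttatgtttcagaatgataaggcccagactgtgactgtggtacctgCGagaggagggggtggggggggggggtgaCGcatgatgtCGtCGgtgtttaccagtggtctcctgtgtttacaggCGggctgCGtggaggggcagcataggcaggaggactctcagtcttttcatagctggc
Mest: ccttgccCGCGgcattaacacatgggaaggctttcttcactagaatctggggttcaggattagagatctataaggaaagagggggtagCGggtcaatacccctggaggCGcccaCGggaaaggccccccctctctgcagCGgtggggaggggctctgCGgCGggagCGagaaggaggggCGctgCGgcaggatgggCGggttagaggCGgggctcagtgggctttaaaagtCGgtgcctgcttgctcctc

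These windows held 10 CG in Meg3, 8 in Dlk1 and 14 in Mest, and windows with at least as many made up 37.8%, 43% and 29.4% of all windows in the table. Over the 12 windows of these genes the median was 9 CG, against 6 over all windows. TGCCGC, the core of the motif read by ZFP57, a zinc finger protein that keeps methylation at imprinting control regions, was searched on both strands. It occurred in 4 of the 12 windows (33.3%), of which a pair at Mest overlap each other, and in 8.68% of all windows. The Mest window above holds 2 copies, the Meg3 window 1 and the Dlk1 window 0, which says only that these letters are or are not there.

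Total expected counts ranged from 16353797 to 37889615 per library, and levels are given as CPM, the count divided by that total and multiplied by 1e+06. Thumpd1 itself was at 21.8 to 24 CPM in WT cerebellum, 9.19 to 10.1 in WT liver and 24.3 to 26.3 in WT testes. In KO it had at most 2 counts in cerebellum, 4 in liver and 41 in testes, so its level separated the genotypes as labelled in every library. Libraries with adjacent numbers tended to be alike, since for 19 of 24 libraries the nearest library of the group was its neighbour (1 with 2, 3 with 4, 5 with 6, 7 with 8). The defining markers of each tissue were present, with granule cell markers summing to 7185 to 7473 CPM in WT cerebellum and 6685 to 7061 in KO, where 4 of 10 fell. Cerebellum libraries differed in RNA of the choroid plexus, with 10 markers summing to 1102 and 1126 CPM in WT replicates 1 and 2, 21.1 and 20.9 in WT 3 and 4, 25.5 and 27 in KO 5 and 6, and 378 and 379 in KO 7 and 8. Because these are bulk samples, fewer cells of a type and less RNA per cell cannot be told apart.

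In WT, 6 of the 10 genes were highest in cerebellum and 4 in testes, and none was highest in liver. Meg3 was the extreme case, with a mean of 3313 ± 164 CPM (SD, n = 4) in cerebellum, 15.1 ± 2.02 in testes and 3.44 ± 0.126 in liver. Peg3 followed the same order at 849 ± 22.5, 16.3 ± 1.41 and 11.2 ± 1.42 CPM, and Igf2 at 96.6 ± 26.5, 14.7 ± 1.78 and 0.697 ± 0.161. Sgce, Mest and Plagl1 were also highest in cerebellum, at 34, 18.5 and 14.1 CPM.

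The testis group was led by Peg10, which had 91.7 ± 4.52 CPM in WT testes, 30.4 ± 1.46 in cerebellum and 2.76 ± 0.471 in liver. Cdkn1c had 8.42 ± 0.248 CPM in testes, 3.06 ± 1.4 in cerebellum and 1.13 ± 0.199 in liver. H19 and Dlk1 were low everywhere, at 1.79 and 1.06 CPM in WT testes and 1.48 and 0.704 in WT cerebellum. Neighbours in these orders had separate WT ranges except testes and cerebellum for H19, testes and cerebellum and also cerebellum and liver for Dlk1, and testes and liver for Mest. Scaling the libraries by TMM put liver above testes for Peg3 (18.6 against 14.2 CPM) and for Mest (3.44 against 2.10), so the lower part of the order of these genes depends on the scaling.

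**Figure D1:**
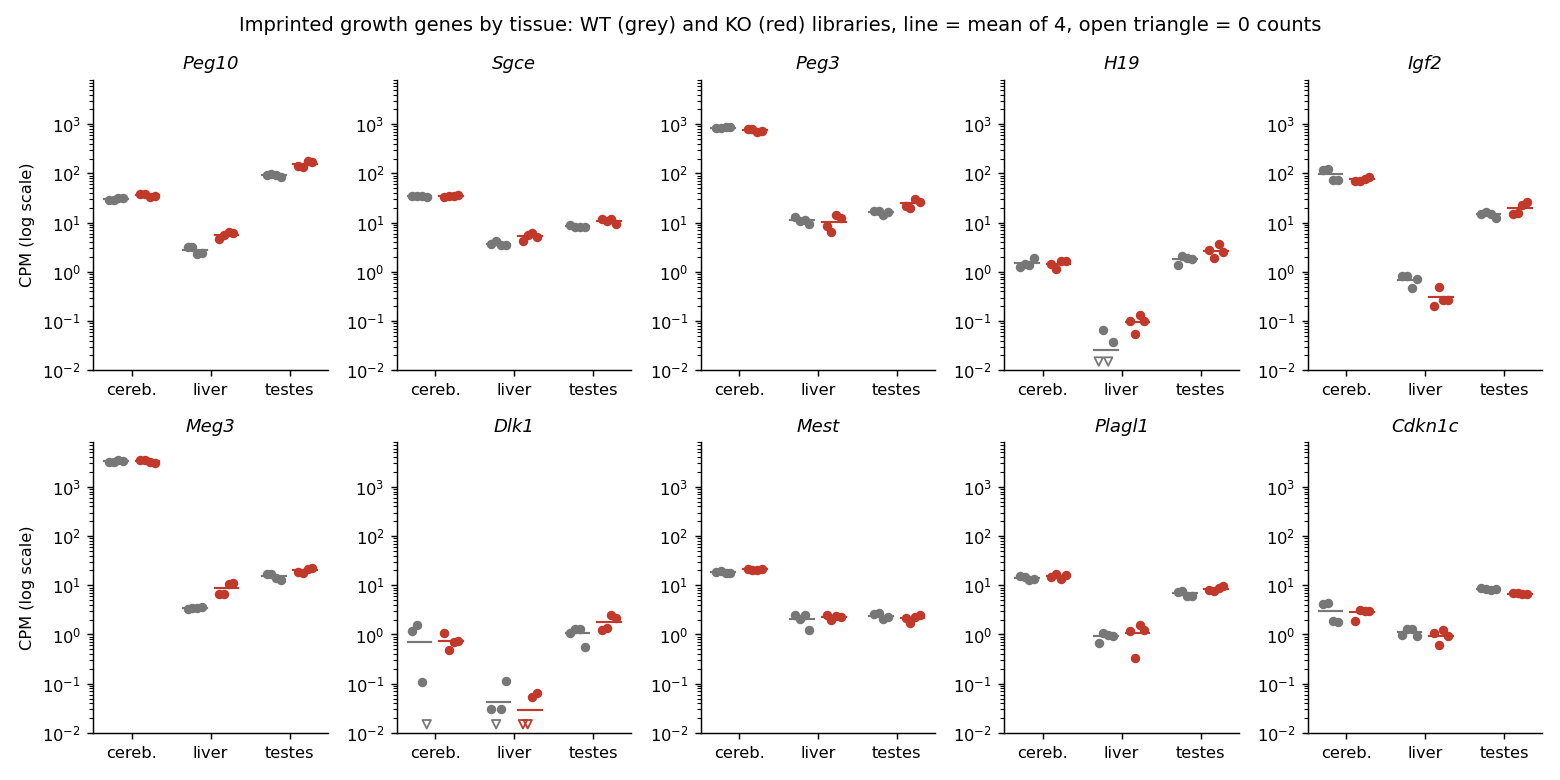
CPM on a log axis for each of the 10 genes in cerebellum, liver and testes, with WT libraries in grey, KO libraries in red, a line at the mean of 4 and open triangles for libraries with 0 counts. Meg3 in WT spans 3.44 CPM in liver to 3313 in cerebellum, while H19 and Dlk1 in liver stay at or near 0 counts.

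Levels can be compared between genes only per length of exon. In WT cerebellum Meg3 had 183 CPM per kilobase of exon, Peg3 63.7 and Igf2 16.9, and the other 7 genes lay between 0.124 and 4.7. In WT testes Peg10 was first at 13.8 CPM per kilobase, followed by Cdkn1c at 4.13 and Igf2 at 2.57. In WT liver all 10 were low, from 0.838 for Peg3 down to 0.00766 for Dlk1, with Peg10 at 0.414 and Meg3 at 0.19.

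The question of the study's tissue comparison was what changes when Thumpd1 is lost, and across the 3 tissues Peg10 was the gene of this set that stood out in the same direction each time. In cerebellum its 4 WT libraries had 28.9, 29.4, 31.9 and 31.4 CPM and its 4 KO libraries 38.1, 38.2, 33.7 and 35.3. In liver the WT libraries had 3.19, 3.14, 2.33 and 2.37 CPM and the KO libraries 4.61, 5.62, 6.33 and 6.11. In testes they had 91.1, 97.2, 92.3 and 86.2 CPM in WT and 138, 134, 181 and 170 in KO. Every KO library was thus above every WT library of its tissue, and the KO mean was 120%, 206% and 170% of the WT mean in cerebellum, liver and testes. The log2 change (KO minus WT, from the limma fit) was 0.24 ± 0.056 (SE), 1.02 ± 0.14 and 0.76 ± 0.10 in that order. The cerebellum value was 0.17 without WT 1 and 2, and the liver value 0.79 in 1 fit over all 24 libraries. The testes value was 0.61 with sample quality weights, 0.56 without KO 7 and 8 and 0.96 without KO 5 and 6. Of 11112 genes tested in all 3 tissues, 24 (0.216%) had KO above WT without overlap in each of them, Peg10 included, and 2 (0.018%) had KO below WT. The liver values rest on few reads, 64 to 103 counts per WT library and 92 to 240 per KO library. In cerebellum, markers of midbrain and forebrain neurons summed to 26.5 to 29.8 CPM in WT, 70.8 and 67.7 in KO 5 and 6, and 44.3 and 37.4 in KO 7 and 8. Cerebellum Peg10 was also higher in KO 5 and 6 than in KO 7 and 8. The part of such cells in its cerebellum value was not tested.

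Sgce, which shares its promoter region with Peg10 and is read in the other direction, showed less of this. In liver it had 3.66, 4.14, 3.55 and 3.45 CPM in WT and 4.26, 5.51, 6.18 and 5.16 in KO, a log2 change of 0.47 ± 0.13. In testes the WT libraries had 9.10, 8.23, 8.06 and 8.04 CPM and the KO libraries 11.6, 10.7, 12.0 and 9.48, a log2 change of 0.29 ± 0.089. The ranges were apart in both organs, although in liver they overlapped after TMM scaling. In cerebellum KO and WT overlapped, with means of 34 ± 0.962 and 34.5 ± 1.32 CPM in WT and KO and a log2 change of 0.01 ± 0.047.

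The other imprinted genes around Peg10 and Sgce did not all follow. They come from the fixed list described below and were tested, although that list was also written with earlier results known. Ppp1r9a, which encodes the actin-binding protein neurabin and lies 142399 bases from Peg10, rose in liver (log2 change 0.58 ± 0.14, limma adjusted p = 0.0361) and testes (0.65 ± 0.084, adjusted p = 0.00193). Its liver call was lost without WT 1, 2 or 4 or KO 5 or 8 (adjusted p of up to 0.109, without WT 1), and its cerebellum log2 change was 0.05. Pon1, which encodes a paraoxonase made by liver and lies 407572 bases away, rose in liver from 268 ± 18.8 to 332 ± 40.9 CPM (limma adjusted p = 0.00793). With neighbouring libraries summed limma called 0 of the other imprinted genes in liver and 0 in testes, so these calls of Ppp1r9a and Pon1 were lost. Casd1, Pon2 and Pon3 passed the threshold in none of the 3 tissues, with values in liver of 0.15, -0.18 and -0.02 on the log2 scale.

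Meg3, the noncoding RNA of the chromosome 12 cluster, gave the widest separation of the set in liver. Its WT liver libraries had 3.29, 3.53, 3.39 and 3.56 CPM, and its KO libraries 6.76, 6.78, 10.5 and 11.1. The lowest KO library lay well above the highest WT library, the mean was 255% of WT, and the log2 change was 1.34 ± 0.18. The KO libraries fell into 2 levels, with replicates 5 and 6 below 7 and 8, and the change was 0.98 when KO 7 and 8 were left out together. In testes Meg3 had 16.9, 16.8, 13.8 and 12.9 CPM in WT and 18.9, 18, 21.5 and 22.1 in KO, also apart, with a log2 change of 0.31 ± 0.096.

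In cerebellum, where the WT mean of Meg3 was 963 times that of liver, KO and WT overlapped. The WT libraries had 3164, 3190, 3506 and 3393 CPM and the KO libraries 3523, 3468, 3235 and 3127. Quantile normalization gave a log2 change of -0.11 ± 0.047, whereas TMM scaling, edgeR and DESeq2 gave values of 0.00 to 2 decimals, so the size of the small cerebellum value rests on the normalization.

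Rian and Mirg are the next noncoding RNAs along the same strand, hosts of small nucleolar RNAs and microRNAs. They belong to the fixed list and were tested. That list was also written with earlier results known, so their p-values are no independent support. Rian in liver had 1.02, 0.842, 1.06 and 1.19 CPM in WT and 2.46, 2.09, 3.04 and 2.78 in KO, and rose with a log2 change of 1.29 ± 0.20 (limma adjusted p = 0.00477). In cerebellum it had 619 ± 22.7 CPM in WT and 530 ± 31.9 in KO, a fall with a log2 change of -0.19 ± 0.041 (limma adjusted p = 0.0185), and that call was lost without WT 1, WT 3, WT 4, KO 5 or KO 8, with adjusted p of up to 0.0626 without WT 3. In testes its log2 change was 0.21 and did not pass. Mirg fell in cerebellum (log2 change -0.19 ± 0.053, limma adjusted p = 0.0469, with ranges that overlapped and up to 0.129 when 1 library was left out, the highest without KO 8) and had only 3 to 17 counts per liver library. The difference of the Rian KO effect between cerebellum and liver was itself past the threshold, at -1.61 ± 0.18 on the log2 scale (limma adjusted p = 6.23e-06, and 0.0223 with neighbouring libraries summed). Within single tissues, that summing lost the Rian call in liver and the Rian and Mirg calls in cerebellum.

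**Figure D2:**
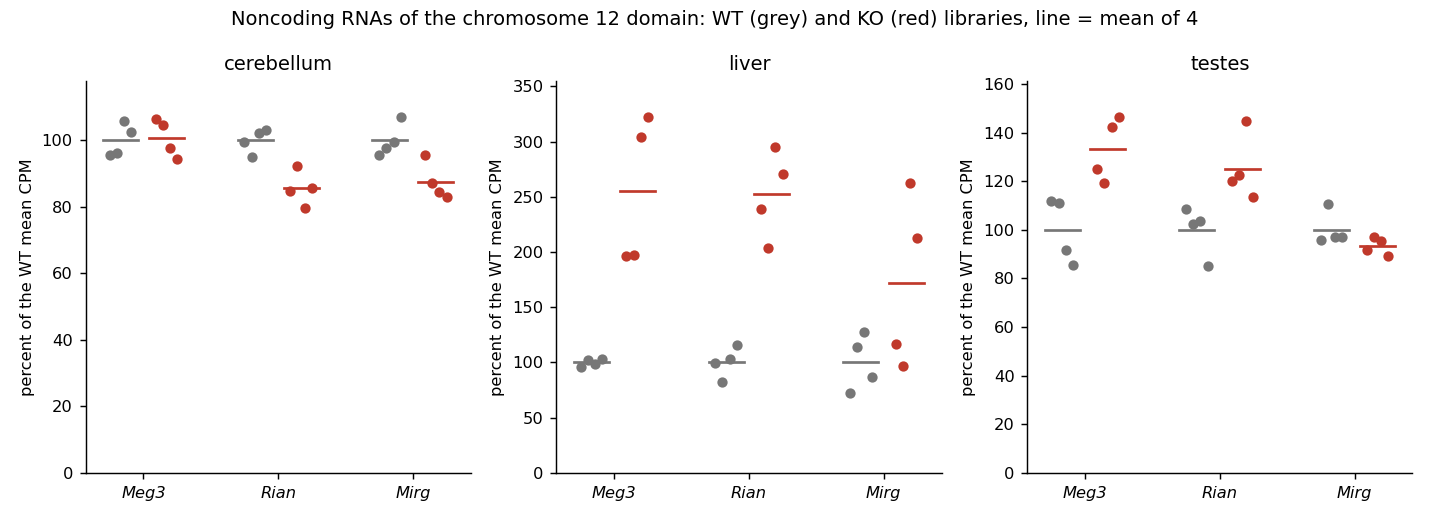
CPM as percent of the WT mean for the noncoding RNAs Meg3, Rian and Mirg in each tissue, with WT libraries in grey, KO libraries in red and a line at the mean of 4; each panel has its own vertical scale starting at 0. In liver the KO means of Meg3 and Rian lie at 255% and 252% of WT, while in cerebellum Meg3 overlaps and Rian lies at 85.6%.

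Dlk1, the protein-coding partner of Meg3 on the paternal copy, was too low in liver for a comparison, with 0 to 3 counts per WT library and 0 to 2 per KO library. In testes it had 1.09, 1.27, 1.30 and 0.566 CPM in WT and 1.22, 1.36, 2.46 and 2.21 in KO. The ranges overlapped, and the log2 change of 0.64 ± 0.29 was 0.20 without KO 7 and 8, 0.39 without WT 4 and 1.21 in 1 fit over all 24 libraries. In cerebellum it did not pass the filter, with 27, 38, 2 and 0 counts in WT and 19, 8, 14 and 14 in KO. The most counts were in WT 1 and 2, the libraries with most choroid plexus RNA, and the fewest in WT 3 and 4.

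Igf2, the fetal growth factor of the insulin family, was not uniform among WT cerebellum libraries. WT replicates 1 to 4 had 118, 121, 73.1 and 74.2 CPM, and KO replicates 5 to 8 had 70.5, 70.3, 78.5 and 83.9. The transthyretin gene Ttr, the defining marker of choroid plexus, had 935, 962, 1.09 and 0.816 CPM in the same WT libraries and 1.87, 1.96, 317 and 312 in the KO libraries. In both genotypes the pair of libraries with more Ttr had more Igf2, and the part of choroid plexus RNA in the Igf2 value was not tested. The log2 change was -0.33 ± 0.15 over all 8 libraries, -0.20 without WT 2, -0.08 over the 4 libraries with little Ttr and 0.03 without WT 1 and 2. Summed markers of meninges and fibroblasts were also apart between the genotypes in cerebellum, at 167 to 180 CPM in WT and 189 to 204 in KO. Of these 11 markers 3 were called higher and 1 lower, with a median log2 change of 0.05. Their part in the cerebellum values of Igf2, H19 and Dlk1 was not tested.

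Cdkn1c in cerebellum had 4.20, 4.33, 1.91 and 1.79 CPM in WT and 1.92, 3.18, 3.07 and 3.05 in KO. In WT the libraries with more Ttr had more Cdkn1c, but in KO they did not, as KO 6, with little Ttr, was the highest and KO 5 alone was low. Its log2 change was -0.13 ± 0.29 over all libraries, 0.05 without WT 1 or without KO 5, 0.08 without WT 2, 0.28 in the low Ttr libraries and 0.49 without WT 1 and 2. The sign of the cerebellum value thus turned with the libraries used for Cdkn1c and, without WT 1 and 2, for Igf2.

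**Figure D3:**
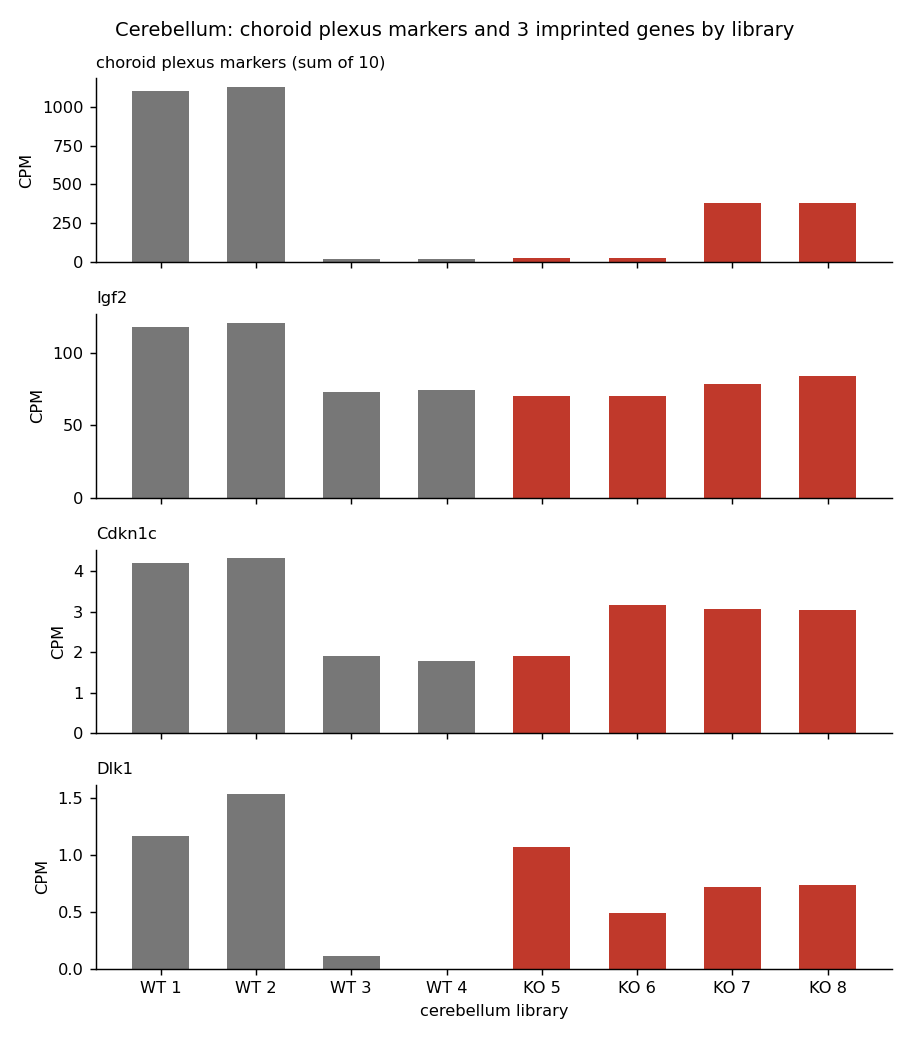
CPM in the 8 cerebellum libraries (WT grey, KO red) of the summed choroid plexus markers, Igf2, Cdkn1c and Dlk1. WT 1 and 2 are the 2 highest libraries in all 4 panels, with Igf2 at 118 and 121 CPM against 70.3 to 83.9 in the other 6.

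In testes Cdkn1c was the gene of the set with KO below WT without overlap, and its libraries were tight. The WT libraries had 8.76, 8.38, 8.16 and 8.39 CPM and the KO libraries 6.94, 6.97, 6.69 and 6.54. The ranges were apart, KO was 80.6% of WT, and the log2 change was -0.42 ± 0.082. In liver the ranges overlapped at 11 to 46 counts per library, with a log2 change of -0.31 ± 0.23, or -0.20 without KO 6 or without KO 8.

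Igf2 in testes had 14.8, 16.8, 14.9 and 12.4 CPM in WT and 15, 15.5, 23.3 and 26.3 in KO. Only KO 7 and 8 lay above the WT range, and the log2 change of 0.31 ± 0.17 was -0.02 without them and 0.62 without KO 5 and 6, with 0.17 without KO 8 and 0.09 with sample quality weights. Liver Igf2 was close to the detection limit, with 26, 25, 15 and 19 counts in WT and 4, 9, 10 and 8 in KO, a KO mean of 44% of WT. It did not pass the filter and has no fitted change. Its ranges in CPM overlapped slightly, 0.467 to 0.809 in WT and 0.2 to 0.496 in KO, and were apart after TMM scaling.

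H19, the maternally expressed noncoding RNA beside Igf2, overlapped between genotypes in all 3 tissues. It had 1.26 to 1.89 CPM in WT cerebellum and 1.16 to 1.69 in KO, and 1.40 to 2.05 in WT testes and 1.87 to 3.66 in KO. The log2 changes were -0.04 ± 0.20 and 0.48 ± 0.21. The cerebellum value ran from -0.13 (without WT 1) to 0.08 (without WT 4) when 1 library was left out and was -0.44 in the low Ttr libraries, and the testes value was 0.31 without KO 7, 0.21 with sample quality weights and 1.02 in 1 fit over all 24 libraries. In liver no library had more than 5 counts, and no fold is given.

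The zinc finger gene Peg3 lay on opposite sides in cerebellum and testes. In cerebellum it had 835, 824, 867 and 869 CPM in WT and 785, 801, 700 and 718 in KO, and its log2 change was -0.17 ± 0.042. In testes it had 17.2, 17.4, 14.3 and 16.4 CPM in WT and 21.5, 20.0, 30.4 and 26.2 in KO, a log2 change of 0.48 ± 0.12, or 0.28 without KO 7 and 8. Both pairs of ranges were apart, with KO below WT in cerebellum and above it in testes. In liver KO 5 and 6 had 8.37 and 6.34 CPM, below the WT range of 9.48 to 13, KO 7 had 14, above it, and KO 8 had 12.6, within it. The liver change of -0.09 ± 0.19 was therefore 0.07 without KO 6, -0.27 without KO 7, -0.58 without KO 7 and 8 and 0.23 without KO 5 and 6.

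Zim1 and Usp29, neighbours of Peg3, come from the fixed list and were named after their values were seen. Zim1, a zinc finger gene 7441 bases away, rose in cerebellum with 4.90, 4.21, 4.52 and 4.08 CPM in WT and 6.67, 5.93, 6.08 and 5.42 in KO (log2 change 0.41, limma adjusted p = 0.0381), a call lost without any of WT 1 to 4, KO 5 or KO 7 (adjusted p of up to 0.109, without KO 5). Usp29, a ubiquitin protease gene that starts 146 bases from Peg3, did not pass, at a log2 change of -0.11. Zim1 and Peg3 therefore had opposite signs in cerebellum.

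Plagl1 overlapped between genotypes in each tissue. Its log2 changes were 0.09 ± 0.078 in cerebellum, 0.18 ± 0.34 in liver and 0.22 ± 0.11 in testes, on WT means of 14.1, 0.918 and 6.82 CPM, and the cerebellum value was 0.05 without KO 8 and 0.14 without KO 7. Liver KO 6 was low, with 6 counts against 22 to 58 in the other 7 libraries, and the liver value was 0.49 without it, 0.003 without WT 1 and -0.30 without KO 7 and 8. Mest had 17.5 to 19.9 CPM in WT cerebellum and 20.3 to 21.9 in KO, apart by total counts and overlapping after TMM scaling, with a log2 change of 0.15 ± 0.06. In liver and testes its ranges overlapped, at 0.09 ± 0.21 and -0.27 ± 0.14. The liver value was -0.09 without WT 4, 0.17 without WT 1, 0.18 without WT 3 and -0.005 with sample quality weights, and the testes value was -0.18 without KO 6 and -0.66 in 1 fit over all 24 libraries.

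**Figure D4:**
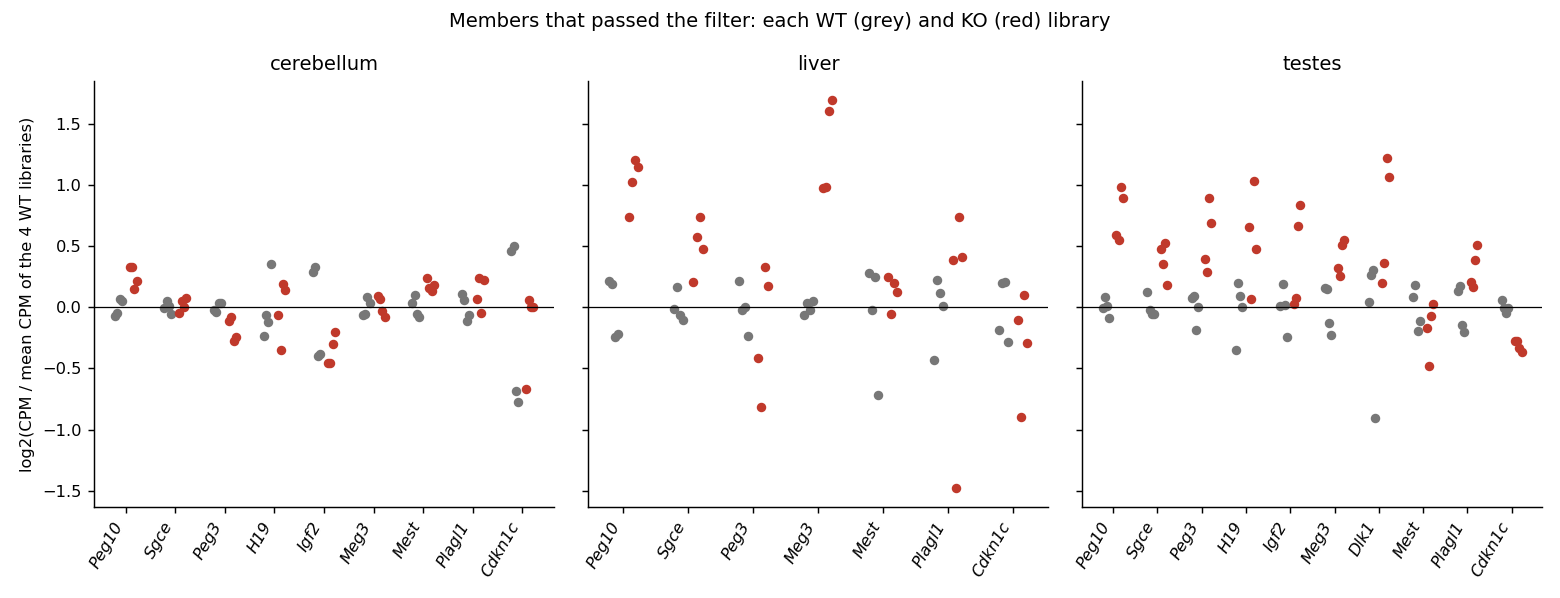
log2 of each library's CPM over the mean of the 4 WT libraries (vertical axis, no unit) for the genes that passed the filter in each tissue, WT in grey and KO in red. Peg10 has all KO libraries above all WT libraries in each panel, and Meg3 in liver has the widest gap.

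Of the 10 genes, 9 passed the filter of at least 1 CPM in at least 4 of 8 libraries in cerebellum (not Dlk1), 7 in liver (not H19, Igf2 or Dlk1) and 10 in testes. KO and WT ranges were apart for 3 in cerebellum (Peg10 and Mest above, Peg3 below), 3 in liver (Peg10, Sgce and Meg3 above) and 5 in testes (Peg10, Sgce, Peg3 and Meg3 above, Cdkn1c below). Over all genes tested 13.8%, 12.7% and 28.6% had ranges apart. The limma threshold (adjusted p under 0.05) was passed by 2 of the 9 in cerebellum (1 higher, 1 lower), 2 of 7 in liver (both higher) and 5 of 10 in testes (4 higher, 1 lower). Among all genes tested it was passed by 6.44% in cerebellum (3.93% higher, 2.51% lower), 5.91% in liver (2.79% and 3.12%) and 20.5% in testes (9.74% and 10.7%). As the genes were picked with these contrasts known, nothing is read from these counts. Their median log2 change was -0.04, 0.18 and 0.31, and the median over all genes was within 0.01 of 0 in each tissue.

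Other imprinted genes give a view that does not depend on that choice of 10, although the list of 82 was also written with earlier results known. In cerebellum 12 of the 56 that passed the filter changed (7 rose and 5 fell), in liver 6 of 44 (4 rose and 2 fell) and in testes 13 of 54 (10 rose and 3 fell). These are 21.4%, 13.6% and 24.1% of those tested, with median log2 changes of 0.03, 0.01 and 0.10, against 6.44%, 5.91% and 20.5% over all genes, and the testes share lies near the latter. The counts depended on the libraries: leaving out 1 gave 2 (without WT 1) to 18 (without KO 6) in cerebellum, 2 (without WT 1, WT 2, KO 5 or KO 8) to 4 in liver and 10 to 17 in testes. Summing neighbouring libraries gave 1, 0 and 0 with limma, and 18, 5 and 13 at an unadjusted p under 0.05.

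Ndn, which encodes the neuronal growth regulator necdin, had the clearest rise in cerebellum, from 82.6, 86.6, 85.1 and 86.9 CPM in WT to 109, 107, 115 and 110 in KO (log2 change 0.37 ± 0.037, limma adjusted p = 0.000306). It rose in testes as well, from 3.12 ± 0.492 to 5.57 ± 0.591 CPM (0.73 ± 0.12, adjusted p = 0.00448). Nnat (neuronatin), Zdbf2 and Th also rose in cerebellum, with log2 changes of 0.54, 0.44 and 0.46. Th, which encodes tyrosine hydroxylase, is also in the list of midbrain and forebrain neuron markers. It is among the 2 of 6 tested genes of that list that rose in cerebellum. The 12 members summed to 26.5 to 29.8 CPM in WT, 70.8 and 67.7 in KO 5 and 6, and 44.3 and 37.4 in KO 7 and 8. The part of such cells in the cerebellum rises of these imprinted genes was not tested. Sfmbt2, a Polycomb group gene, rose in cerebellum (0.58 ± 0.14, adjusted p = 0.0267) and testes (0.29 ± 0.053, adjusted p = 0.00592).

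The falls in cerebellum were small. Ube3a, a ubiquitin ligase gene, fell by 0.24 on the log2 scale, Inpp5f by 0.17 and Herc3 by 0.14, beside Rian and Mirg. In liver Gatm, an enzyme of creatine synthesis, rose by a log2 change of 0.37 (adjusted p = 0.0477), and Gnas, which encodes the stimulatory G protein alpha subunit, and Trappc9 fell by 0.20 and 0.39. In testes Phactr2 and Gatm rose by 0.54 and 0.55, and Ntm, Snrpn and Slc22a18 fell by 0.85, 0.48 and 0.42. Nnat, Zdbf2, Ube3a, Gnas and Snrpn have an overlapping gene on the opposite strand, which makes their values less certain. Of the 35 calls of genes named by rule from the lists, 19 were kept whichever library was left out. They were 3 of 13 in cerebellum (Ndn, Nnat and Igfbp5), 5 of 10 in liver (Rian, Pon1, Igfbp1, Igfbp2 and Igfbp3) and 11 of 12 in testes, where Slc22a18 had an adjusted p of 0.0509 without WT 3. The other cerebellum and liver calls were lost without at least 4 of the 8 libraries in turn, with limma adjusted p between 0.0626 and 0.143 at the highest.

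**Figure D5:**
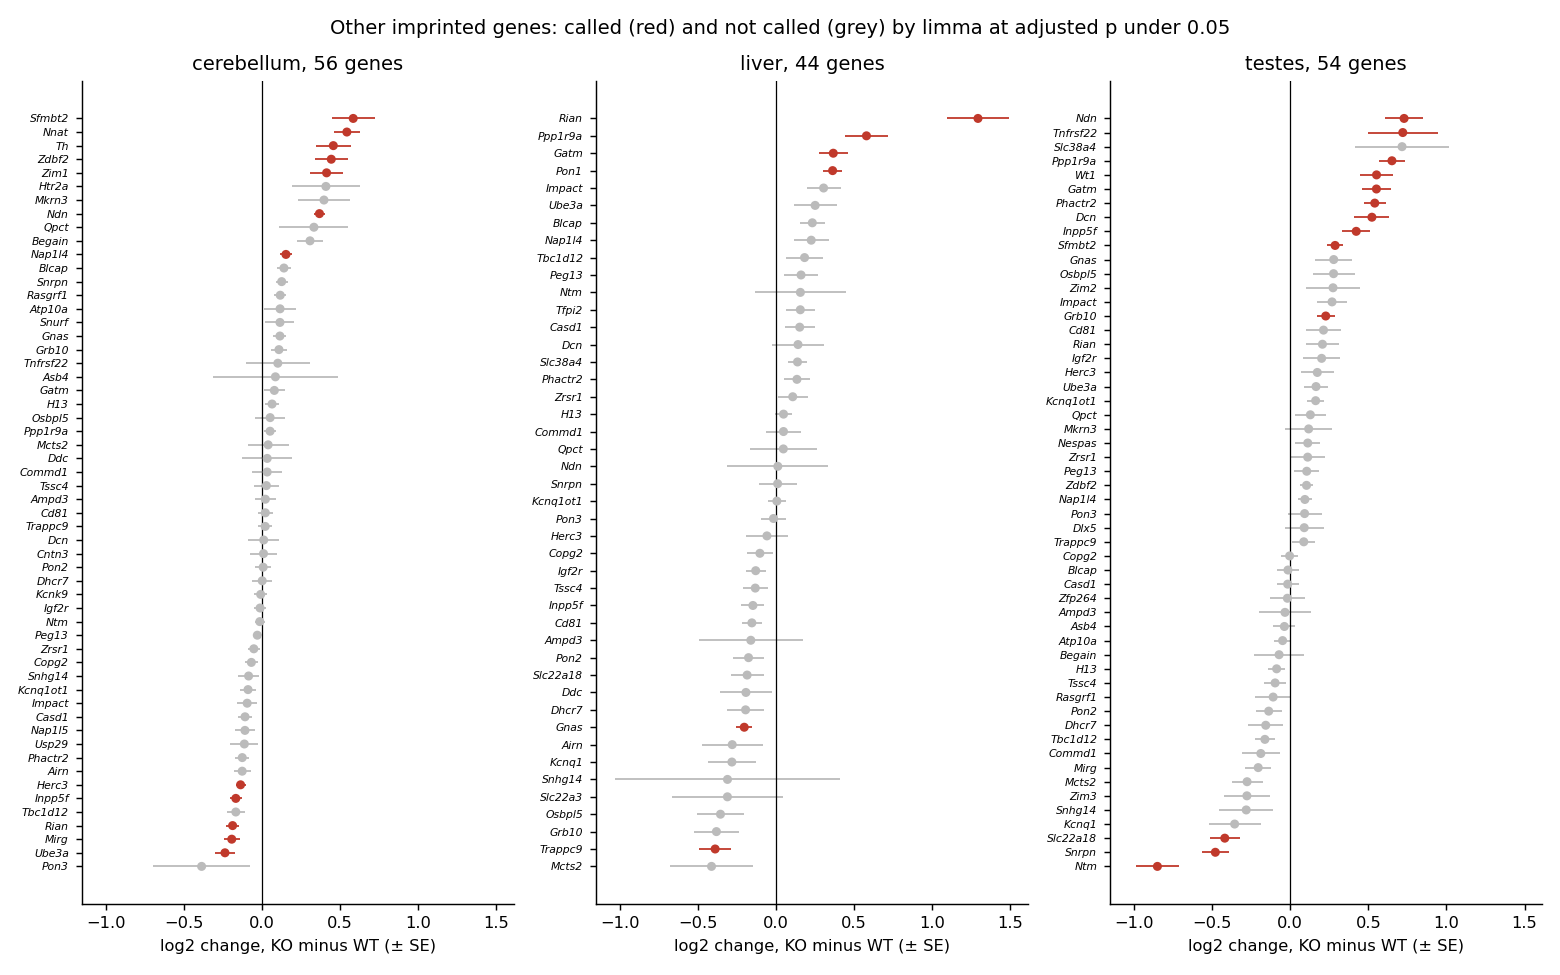
log2 change (KO minus WT, limma) with its SE for every other imprinted gene that passed the filter, sorted within each tissue, with genes past the threshold in red. Rian in liver, at 1.29, is the farthest from 0 of the 3 panels.

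Whether the KO effect itself differed from tissue to tissue was tested for the 36 other imprinted genes that passed the filter in all 3. The threshold was passed by 6 of 36 (16.7%) for cerebellum minus liver, 11 (30.6%) for testes minus liver and 9 (25%) for testes minus cerebellum, and among all 11112 genes tested by 7.67%, 15.9% and 14.5% in that order. With neighbouring libraries summed, 1, 0 and 0 passed with limma, and 8, 11 and 10 at an unadjusted p under 0.05. Rian differed in each of them, at -1.61, -1.18 and 0.43 on the log2 scale. Ppp1r9a differed between cerebellum and liver (-0.55) and between testes and cerebellum (0.49).

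Genes related to the 10 but not imprinted, and the insulin-like growth factor axis around Igf2, were read from fixed lists of 19 and 17 genes. Of the relatives, 4 of 16 tested rose and 0 fell in cerebellum (25% called, against 6.44% of all genes), among them Rtl5, another gene of retrotransposon origin (log2 change 0.27 ± 0.063), and Sgcd, which encodes delta-sarcoglycan (0.39 ± 0.098). In liver limma called 0 of 10, as did edgeR and DESeq2, with 1 at an unadjusted p under 0.05. In testes 2 of 12 rose and 1 fell (25% called, near the 20.5% over all genes), with Igf1 at 0.57 ± 0.08, the Cdkn1c relative Cdkn1b at 0.38 ± 0.085 and the Sgce relative Sgca at -0.51 ± 0.094. With neighbouring libraries summed limma called 0 of the relatives in each tissue, with 7, 0 and 3 in cerebellum, liver and testes at an unadjusted p under 0.05.

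In the growth factor axis, liver had 5 of 15 tested genes past the threshold (33.3%, against 5.91% of all genes), while edgeR called 4 and DESeq2 5. Igfbp1, a binding protein that liver secretes in fasting and stress, had 21.2, 22.4, 32.0 and 28.9 CPM in WT and 72.3, 78.9, 141 and 135 in KO (log2 change 2.03 ± 0.22, limma adjusted p = 0.000976). Igfbp2 rose by a log2 change of 0.95 ± 0.15, and Igfbp3, the main carrier of the growth factors in blood, and Igfals, which stabilizes that complex, fell by 0.77 and 0.80. Cerebellum had 1 of 12 (8.33%, near the 6.44% of all genes), a fall of Igfbp5 by 0.20, and testes had 6 of 16 (37.5%, against 20.5%), all rises, with the receptor gene Igf1r at 0.75 ± 0.15 (adjusted p = 0.00712). Igf2r, the clearance receptor of Igf2 and itself imprinted, did not pass in any tissue. With neighbouring libraries summed limma called 0 genes of the axis in each tissue, with 3, 5 and 5 in cerebellum, liver and testes at an unadjusted p under 0.05.

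Cell type markers moved in the KO testes beside these genes. Sertoli cell markers rose in 9 of 12, and their sum was 1181 to 1391 CPM in WT and 1511 to 2177 in KO. Spermatid markers fell in 5 of 10, with sums of 11400 to 12000 CPM in WT and 8342 to 10630 in KO, and KO 7 and 8, which had the highest Peg10, Peg3, Igf2 and Dlk1, had the lowest sums at 8342 and 8698. Wt1, which is in the imprinted list and rose in testes, is also a Sertoli marker. Fibroblast markers summed to 277 to 298 CPM in WT testes, 303 and 313 in KO 5 and 6 and 421 and 400 in KO 7 and 8, with 2 of 8 tested higher, and endothelial markers to 53.6 to 57.1 in WT and 58.7 to 76.6 in KO, with 0 of 10 called. KO 7 and 8 thus also had the highest fibroblast and endothelial sums. Of 10 Leydig cell markers 2 rose and 2 fell. Their sum was 1190 to 1287 CPM in WT, 1733 in KO 7, and 1105, 1116 and 1078 in KO 5, 6 and 8. The part of cell composition in the testes values was not tested. Liver had hepatocyte markers summing to 49750 to 64080 CPM in WT and 60240 to 85210 in KO, with 2 of 10 higher and 1 lower. Markers of fetal and regenerating liver summed to 20.8 to 22.5 CPM in WT and 23.7 to 27.1 in KO. Of these, 1 of 5 tested was called higher and 0 lower, with a median log2 change of -0.14. Fibroblast markers were lower in 4 of 7 tested. Within the fibroblast list, whose genes are named here after their values were seen, 3 collagen genes had KO below WT without overlap, with Col1a1 at 12 to 18.4 CPM in WT and 6.81 to 8.42 in KO, Col1a2 at 15.1 to 19.6 and 10.6 to 11.3, and Col3a1 at 32.7 to 41.1 and 21.9 to 27.3. Lum, at 1.93 to 2.68 CPM in WT and 1.71 to 3.01 in KO, and Pdgfra, at 5.57 to 7.34 and 4.36 to 6.89, overlapped. The fibronectin gene Fn1, which hepatocytes also express, was the most abundant of that list at 1963 to 2266 CPM in WT and 1691 to 2723 in KO, and made up most of the list's sum of 2205 to 2527 CPM in WT and 1885 to 2943 in KO. Kupffer and stellate cell markers summed to 281 and 298 CPM in KO 5 and 6, 369 and 382 in KO 7 and 8 and 286 to 341 in WT. Endothelial markers summed to 203 and 214, 251 and 251, and 193 to 223 in the same order. Both sums were thus higher in KO 7 and 8 than in KO 5 and 6, as Meg3, Peg3 and Peg10 were. The part of these cells in the liver values was not tested.

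Over all 24 libraries, Rian was the gene whose pattern was most like that of Meg3, with Pearson's r of 0.9991 on log2(CPM + 1). Peg3 was closest to Trio (0.9986) and Git2 (0.9985), Igf2 to Mtcl1 (0.9965) and Ppp1r12b (0.9963), and Peg10 to Jcad and Lonrf3 (both 0.9913). For Dlk1 the closest, Glis3, reached 0.9251. The 24 libraries come from 3 tissues and those of a tissue share it, so these values are a description and carry no test.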

How the data were processed

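RNA from tissue frozen in RNAlater was extracted with Trizol per the labels, or with TRI reagent and a Direct-zol column kit per the study's methods, and was depleted of ribosomal RNA, made into stranded total RNA libraries and sequenced as paired ends. The authors aligned reads with STAR and made the deposited expected counts per gene with RSEM on mm10 with GENCODE M21. Versions and the strand used in counting are not given in the sources used here. Samples were grouped by their labels, and 0 columns were left unmatched. The genes, the lists and the rule for named genes were chosen with earlier results of these data known.

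CPM is the expected count divided by a library's total and multiplied by 1e+06. In each tissue, genes with at least 1 CPM in at least 4 of 8 libraries were quantile normalized with voom and compared with limma 3.58.1 in R 4.3.3, with Benjamini-Hochberg adjustment over all genes tested and a threshold of 0.05. Differences between tissues used all 24 libraries, TMM factors from edgeR 4.0.16 and limma-voom on 11112 genes. Alternatives were edgeR, DESeq2 1.42.0 (rounded counts), TMM, other filters, sample quality weights, 1 fit over 24 libraries and leaving out libraries. Alternatives with pairs of libraries summed or left out, with low Ttr libraries only, or with the replicate number as a block between tissues were added after seeing the data. Named genes are the 10, Thumpd1, in each tissue up to 5 rises and 5 falls of the imprinted list and up to 2 of each related list with the smallest p, and the 2 genes most like each of the 10. Neighbours of the 10, Igf2r and genes named as list overlaps were chosen after their values were seen. Scripts were tested on simulated data. No pair of libraries matched within sampling noise.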

Additional observations from a re-analysis of the deposited data

Results flagged for a closer look

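Of 56 groups of 4 libraries with enough counts, 1 had a library far from the other 3. KO replicate 5 of cerebellum had 1.92 CPM of Cdkn1c against 3.05 to 3.18 in KO 6 to 8, and chance flags about 1 in 20 such groups. Peg3 moved in opposite directions in every library of 2 tissues, with log2 changes of -0.17 in cerebellum and 0.48 in testes, and the difference itself was not tested because its values were known when it was picked.

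Several other imprinted genes had a KO effect that differed between tissues by the limma interaction test. For cerebellum minus liver the differences on the log2 scale were 0.34 for Gnas, -0.55 for Ppp1r9a, 0.39 for Trappc9 and -1.61 for Rian. For testes minus liver they were 0.39 for Gnas, 0.55 for Inpp5f, 0.35 for Trappc9, -1.18 for Ntm, 0.33 for Phactr2, -1.18 for Rian and -0.54 for Snrpn. For testes minus cerebellum they were 0.33 for Gatm, 0.49 for Ppp1r9a, 0.57 for Inpp5f, -0.84 for Ntm, 0.63 for Phactr2, 0.43 for Rian and -0.60 for Snrpn. With neighbouring libraries summed, Rian for cerebellum minus liver was the one of these differences still past the threshold.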

How the results depend on the processing

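The counts of other imprinted genes past the threshold depended both on summing neighbouring libraries and on which libraries were taken. Against 12 in cerebellum, 6 in liver and 13 in testes, summing neighbouring libraries, which leaves 2 against 2, gave 1, 0 and 0 with limma, and 18, 5 and 13 at an unadjusted p under 0.05. No filter gave 7 in cerebellum and 3 in liver. In cerebellum 1 fit over all 24 libraries gave 3, the low Ttr libraries 4 and leaving out WT 1 and 2 together 3. Leaving out KO 7 and 8 gave 12 in liver, and leaving out KO 5 and 6 gave 23 in testes; the cause was not tested. Leaving out 1 library gave 2 (without WT 1) to 18 (without KO 6) in cerebellum, 2 (among others without WT 1) to 4 (without WT 4) in liver and 10 (without WT 3) to 17 (without KO 5) in testes. For the differences between tissues it gave 2 (without liver KO 6, among others) to 8 (without liver KO 7) for cerebellum minus liver against 6, 8 to 13 for testes minus liver against 11 and 7 to 10 for testes minus cerebellum against 9. Of 35 named calls of list genes, all kept their direction in every alternative, and 0 were lost with edgeR, DESeq2, TMM or sample quality weights, 9 with no filter, 4 with a weaker filter, 14 with 1 fit and 34 with neighbouring libraries summed. Ndn in cerebellum was the call kept in all of them. Between genotypes no replicate number is shared, as WT libraries are numbered 1 to 4 and KO libraries 5 to 8. The tissues repeat the numbers, but same-numbered libraries of 2 tissues did not all deviate together (r of -0.183 to 0.25 over 24 pairs, 6 above 0.1, and 9 in which the own number gave the highest r), so the number was not read as a pairing. With it as a replicate block, 8, 14 and 9 genes passed for cerebellum minus liver, testes minus liver and testes minus cerebellum, with all 6, 11 and 9 of the fit without it among them, while summing neighbouring libraries gave 1, 0 and 0.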
